A study of Rattus norvegicus with 12 samples.

Results

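Chemokines are small proteins, most of them secreted and a few held in the membrane, that draw leukocytes along a gradient by binding receptors coupled to G proteins. The CC, CXC, XC and CX3C families are named for the spacing of their first cysteines. In gliomas they are known for bringing monocytes, microglia, neutrophils and lymphocytes into the tumour, and several are induced by NF-kB or by interferons. The genes described here are those whose array symbol begins with Ccl, Cxcl, Ccr or Cxcr and a number, 1 CC receptor aside, together with Cx3cl1, Xcl1 and Ackr3. They number 44 of 22067 genes on the array, 30 of them ligands and 14 receptors, and 45 of 22523 probes. A probe with no gene symbol (8730 of them) counts as a gene of its own, here and in every count or share of all genes.

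The tumours came from rat 9L gliosarcoma cells injected 2 mm deep into the cortex of female Fischer rats aged 4 to 6 weeks. The first group carried EGFRvIII, a shortened and always active epidermal growth factor receptor (6 tumours). The other carried the empty vector, EV (6 tumours). The EGFRvIII line was made by transfection with pcDNA3.1(+) and selection with zeocin, no further treatment is listed, and each tumour was removed after 3 weeks and hybridised to 1 Illumina RatRef-12 array. Each group rests on 1 cell line, so EGFRvIII and any other difference between the lines cannot be told apart, and the p-values measure spread between rats. The RNA holds tumour, brain and infiltrating cells together, so fewer cells of a type and less RNA per cell cannot be told apart.

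All values are background-corrected, quantile-normalized log2 intensities of a probe. They compare tumours for 1 gene and not 1 gene with another. Detected means a detection p under 0.05. Between 11182 and 12040 probes were detected on EGFRvIII arrays, and between 11720 and 12719 on EV arrays. Before normalization the EGFRvIII arrays were all dimmer. The 75th percentile of their signal was 98.65 to 121, against 128.9 to 154.65 on EV arrays, so array brightness and group cannot be told apart. All 9 markers listed for the tumour cells were kept by the detection filter, among them vimentin (Vim) and nestin (Nes). Gfap and S100b of this list are also listed for astrocytes. By limma 1 of the 9 was higher in EGFRvIII tumours and 4 were lower, with a median change of -0.87. Some tumours of both groups stood apart in the marker lists. The mean of 14 T and NK cell markers was 5.43 and 6.09 in EGFRvIII rats 2 and 5 and 7.71 to 8.65 in the other EGFRvIII tumours, against 4.99 in EV rat 3 and 6.53 to 8.73 in the other EV tumours. The mean of 10 neuron markers was highest in EGFRvIII rat 1 (8.14) and in EV rat 2 (9.52). The 7 called chemokine and receptor genes are therefore also given without EGFRvIII rats 2 and 5 and without EV rats 2 and 3, the first of these chosen after the values were seen. Without EGFRvIII rats 2 and 5, 4 of the 30 tested genes were higher and 0 lower by limma, with 775 of all genes higher and 781 lower. Without EV rats 2 and 3, 3 of the 30 were higher (Ccr1, Ccl7 and Cxcl1) and 1 lower, which was Ccl5 (-1.82, adjusted p = 0.0158) and not Cx3cl1. Of all 11695 genes, 995 were higher and 957 lower in that setting.

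Promoter sequence is shown for 5 genes on which the results turn. Cxcl1 and Ccl7 were higher in EGFRvIII tumours, and Cxcl11, Cxcl10 and Cxcl9 lie next to each other and were among the genes that varied most between tumours of a group. Each sequence is the 250 bases before the gene's start from RefSeq, build GRCr8, written 5′ to 3′. Capitals mark matches on either strand to 3 motifs, namely GGAANTTCC, a form bound by NF-kB, TGANTCA, bound by AP-1, and TTCNNNGAA, bound by STAT factors.
Cxcl1 (chr14:17479322-17479571, minus strand): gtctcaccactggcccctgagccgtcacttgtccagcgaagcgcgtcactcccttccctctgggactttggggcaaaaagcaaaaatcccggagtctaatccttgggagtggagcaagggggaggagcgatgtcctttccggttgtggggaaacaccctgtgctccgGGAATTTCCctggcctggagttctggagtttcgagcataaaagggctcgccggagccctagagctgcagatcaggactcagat
Ccl7 (chr10:67513845-67514094, plus strand): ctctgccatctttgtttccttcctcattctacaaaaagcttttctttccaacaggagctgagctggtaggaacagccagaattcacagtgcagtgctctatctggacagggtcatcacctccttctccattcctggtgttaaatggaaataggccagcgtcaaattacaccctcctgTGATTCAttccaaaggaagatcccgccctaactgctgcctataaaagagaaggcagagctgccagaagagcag
Cxcl11 (chr14:15973478-15973727, plus strand): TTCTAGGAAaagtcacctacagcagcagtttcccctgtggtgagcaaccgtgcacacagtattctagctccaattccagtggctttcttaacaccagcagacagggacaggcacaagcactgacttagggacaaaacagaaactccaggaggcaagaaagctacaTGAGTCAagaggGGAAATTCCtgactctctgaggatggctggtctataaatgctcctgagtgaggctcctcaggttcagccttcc
Cxcl10 (chr14:15988816-15989065, plus strand): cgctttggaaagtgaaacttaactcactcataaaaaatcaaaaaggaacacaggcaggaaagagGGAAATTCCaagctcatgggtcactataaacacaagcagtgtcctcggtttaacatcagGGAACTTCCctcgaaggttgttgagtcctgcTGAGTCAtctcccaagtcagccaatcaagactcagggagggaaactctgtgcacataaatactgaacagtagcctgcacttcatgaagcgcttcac
Cxcl9 (chr14:16006916-16007165, plus strand): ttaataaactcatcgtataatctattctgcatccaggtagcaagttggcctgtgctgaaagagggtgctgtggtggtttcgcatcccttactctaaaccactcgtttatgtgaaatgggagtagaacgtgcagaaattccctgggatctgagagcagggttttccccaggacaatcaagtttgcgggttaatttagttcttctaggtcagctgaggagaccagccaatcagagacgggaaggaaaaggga

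Of the 44 genes, 34 had a promoter in the table. GGAANTTCC was present in 5 of them (Ccr3, Cxcl1, Cxcl6, Cxcl10 and Cxcl11), and in 0.669% of all 33469 promoters. TGANTCA was present in 4 (Ccl7, Ccr3, Cxcl10 and Cxcl11) against 6.34% of all, and TTCNNNGAA in 3 (Ccl17, Ccr6 and Cxcl11) against 7.67%. In Cxcl1 the GGAATTTCC match lies 83 to 75 bases before the start, and in Ccl7 the TGATTCA match lies 73 to 67 bases before it. No match overlapped another in these sequences. Cxcl9 held no match in this window, which says only that these letters are not in it.

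Of the 44 genes, 30 were detected on at least 6 of 12 arrays and were tested, 23 ligands and 7 receptors, and 19 of these were detected on all 12. The other 14 (7 ligands and 7 receptors) were not tested. Of these, 7 were detected on 0 of 12 arrays, namely the ligands Ccl9, Ccl11, Cxcl3 and Cxcl6 and the receptors Ccr10, Cxcr2 and Cxcr5. The 7 others were Ccl20, Ccl28, Cxcl2, Ccr1l1, Ccr9, Cxcr1 and the atypical receptor Ackr3, each detected on 1 to 5 arrays. Cxcl16 had 2 probes, of which the brighter was used.

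**Figure D1:**
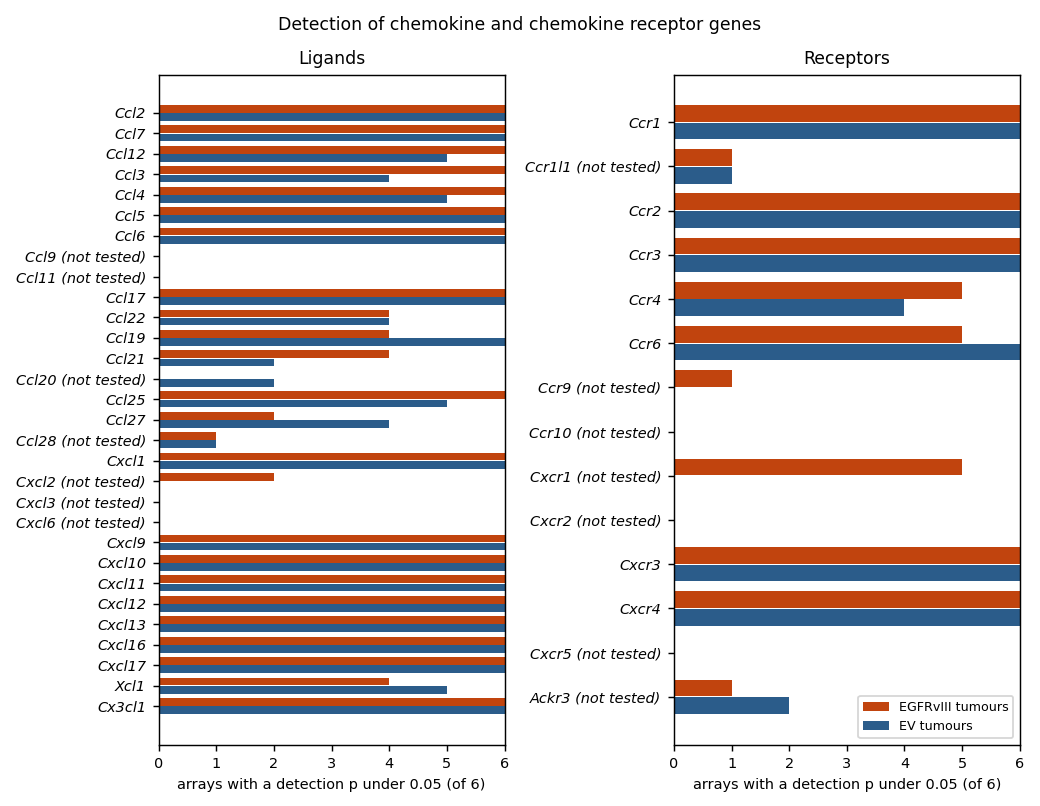
Number of arrays of 6 per group on which each gene was detected (x axis) for 30 ligands (left panel) and 14 receptors (right panel), EGFRvIII tumours above EV tumours in each pair of bars. Cxcr1 has a bar for EGFRvIII tumours only, with 5 of 6 arrays against 0 of 6 EV arrays.

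Among the 30 tested genes, Ccr1, Ccl7, Ccl12, Cxcl1, Ccl17 and Ccr3 were higher in EGFRvIII tumours, and Cx3cl1 was lower. By limma with Benjamini-Hochberg adjustment over 11695 genes, the call was higher for 6 and lower for 1, and 23 did not pass, 10 of the 30 having an unadjusted p under 0.05. The share called was 23.3%, against 21.5% of all genes, with 20% higher against 11.1% and 3.33% lower against 10.4%. The median change was 0.16, against 0.01 over all genes. The groups did not overlap for 2 of 30 genes (6.67%), Ccl7 and Cxcl1, both higher, against 11.1% of all genes (5.63% higher and 5.49% lower). With each array scaled to the same median and no quantile step, 3 of the 30 were higher and 2 lower, while 768 of all genes were higher and 1799 lower, against 1299 higher and 1220 lower with it.

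**Figure D2:**
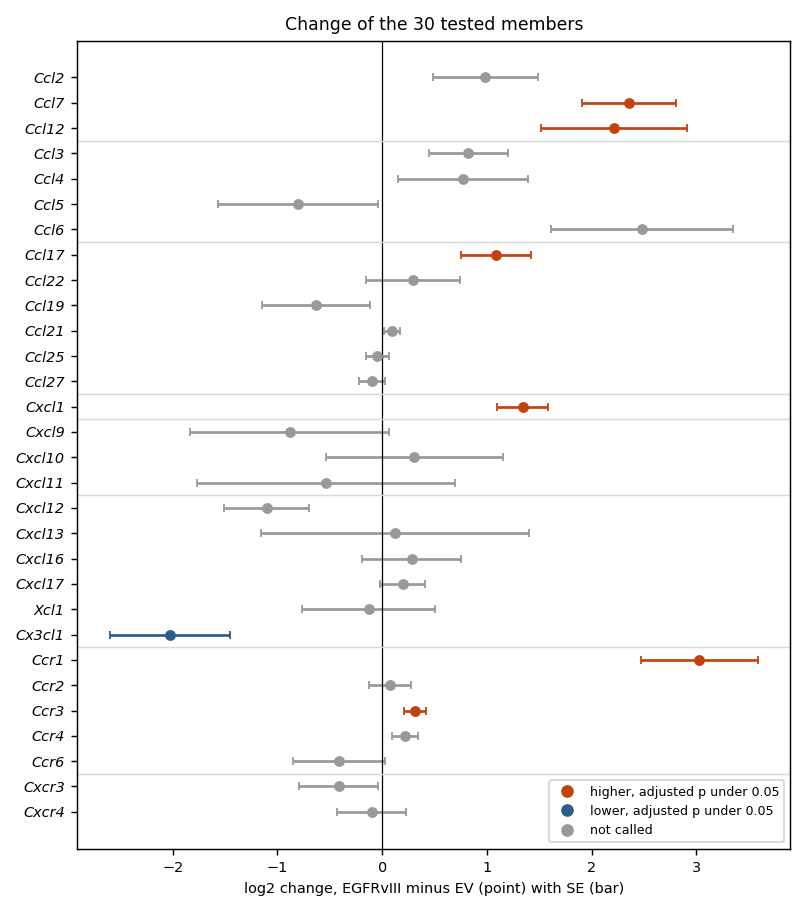
Change of each tested gene, EGFRvIII minus EV on the log2 scale (x axis, point) with its SE (bar), by family from ligands at the top to receptors at the bottom. Ccr1 at 3.03 and Ccl7 at 2.36 lie farthest right among the genes called higher, and Cx3cl1 at -2.03 is the gene called lower.

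Of the 3 tested ligands that attract monocytes, Ccl7 and Ccl12 were higher in EGFRvIII tumours and Ccl2 was not called. Ccl7, a monocyte chemoattractant, was 8.94, 7.82, 9.19, 10.42, 8.09 and 9.22 in EGFRvIII rats 1 to 6, against 6.87, 5.57, 5.73, 7.61, 7.38 and 6.37 in EV rats 1 to 6. Every EGFRvIII tumour lay above every EV tumour. The change was 2.36 ± 0.45 (SE), or 5.13-fold, with an adjusted p of 0.00239 by limma. Without EV rats 2 and 3 it was 1.89 ± 0.43 (adjusted p = 0.0117), without EGFRvIII rats 2 and 5 it was 2.85 ± 0.43 (adjusted p = 0.00169), and the call stood in all 25 alternatives.

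Ccl12, a related monocyte attractant known from the mouse as a Ccr2 ligand, was 8.74, 5.87, 7.83, 9.86, 7.18 and 9.42 in EGFRvIII rats 1 to 6, against 6.37, 4.69, 4.48, 7.28, 7.51 and 5.28 in EV rats 1 to 6. EGFRvIII rats 2 and 5 fell within the EV range, and 5 of 6 EV arrays detected it. The change was 2.21 ± 0.70 (4.64-fold, adjusted p = 0.0377 by limma). It no longer passed when a single tumour among EV rats 2, 3 and 6 and EGFRvIII rats 1, 3, 4 and 6 was left out (adjusted p between 0.0572 and 0.0837), and without EV rats 2 and 3 together the change was 1.54 ± 0.71 (adjusted p = 0.167). Without EGFRvIII rats 2 and 5 it was 3.03 ± 0.63 (adjusted p = 0.0097).

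Ccl2, the best known monocyte attractant of gliomas, ranged from 8.87 to 10.49 (median 9.86) in EGFRvIII tumours and from 7.31 to 9.97 (median 8.87) in EV tumours. EV rats 1, 4 and 5 lay at 9.83 to 9.97, inside the EGFRvIII range, while EV rats 2, 3 and 6 lay at 7.31 to 7.91, below it. The change of 0.99 ± 0.51 was not called (adjusted p = 0.185). In the reference annotation Ccl2, Ccl7, Ccl11 and Ccl12 follow one another with no other protein-coding gene between them, so this run holds 2 genes called higher, 1 not called and 1, Ccl11, detected on 0 arrays. Ccr2, a receptor of the monocyte attractants Ccl2, Ccl7 and Ccl12 but not their only one, was 5.90 ± 0.41 in EGFRvIII tumours and 5.83 ± 0.32 in EV tumours (SD, n = 6 each). Its change of 0.07 ± 0.20 was not called.

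**Figure D3:**
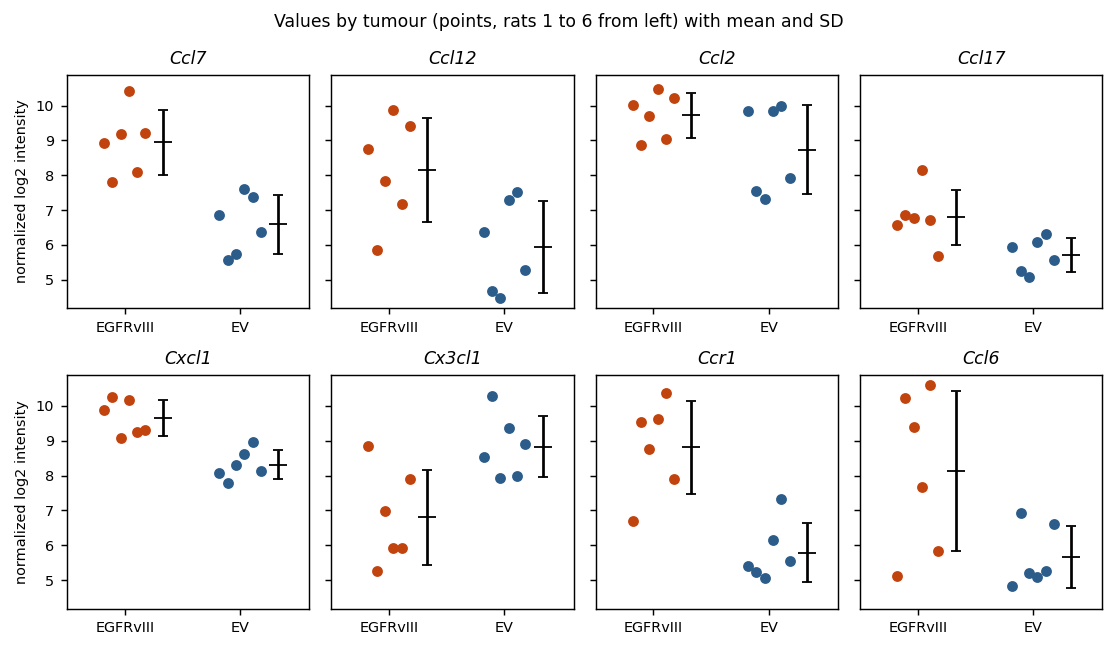
Normalized log2 intensity (y axis) of 8 genes in each tumour, EGFRvIII left and EV right in each panel, rats 1 to 6 from left to right, with the mean and SD as a bar. Ccl7 and Cxcl1 do not overlap between the groups. Ccl6 is spread widely over the EGFRvIII tumours, from 5.12 and 5.84 at the low end through 7.67 to 10.58.

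The 4 tested inflammatory CC ligands, Ccl3, Ccl4, Ccl5 and Ccl6, were not called. Ccl6, a ligand of myeloid cells described in rodents, was 5.12, 10.23, 9.38, 7.67, 10.58 and 5.84 in EGFRvIII rats 1 to 6, against 4.83 to 6.93 (median 5.23) in EV tumours. EGFRvIII rats 2, 3, 4 and 5 lay above every EV tumour, and EGFRvIII rats 1 and 6 lay within the EV range. The change of 2.48 ± 0.87 had an adjusted p of 0.0569 by limma, and of 0.0132 and 0.0260 without EGFRvIII rat 1 or rat 6. Without EGFRvIII rats 2 and 5 it was 1.35 ± 0.73 (adjusted p = 0.260).

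Ccl3 and Ccl4, which macrophages and T cells release, and Ccl5, a product of T cells among others, overlapped widely. Ccl3 ranged from 5.50 to 7.20 in EGFRvIII tumours and from 4.29 to 6.73 in EV tumours (change 0.82 ± 0.38, adjusted p = 0.141). EV rat 1 was the highest EV tumour, and without it the change was 1.11 ± 0.32 (adjusted p = 0.0259). The change of Ccl4 was 0.77 ± 0.62 (adjusted p = 0.410), and it ran from 0.36 without EV rat 3 to 1.21 without EV rat 1, with 0.065 without EV rats 2 and 3 and 1.32 without EGFRvIII rats 2 and 5. Ccl5 ranged from 7.13 to 9.96 in EGFRvIII tumours and from 5.90 to 11.27 in EV tumours, with a change of -0.80 ± 0.76 (adjusted p = 0.493). EV rat 3 held the 5.90, and without it the change of Ccl5 was -1.55 ± 0.46 (adjusted p = 0.0329).

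Ccr1, a receptor of monocytes and neutrophils for several of these ligands, had the largest change of the 30 genes. It was 6.69, 9.55, 8.77, 9.62, 10.37 and 7.91 in EGFRvIII rats 1 to 6, against 5.41, 5.22, 5.05, 6.14, 7.34 and 5.56 in EV rats 1 to 6. EV rat 5 lay above EGFRvIII rat 1, and otherwise the groups were apart. The change was 3.03 ± 0.56 (8.16-fold, adjusted p = 0.00201 by limma), 2.70 ± 0.63 without EV rats 2 and 3 (adjusted p = 0.0126) and 2.46 ± 0.55 without EGFRvIII rats 2 and 5 (adjusted p = 0.0135), and the call stood in all 25 alternatives. In the annotation Ccr1, Ccr3, Ccr1l1 and Ccr2 are adjacent, and Ccr3, the eotaxin receptor of eosinophils, was 6.13 ± 0.12 in EGFRvIII tumours and 5.82 ± 0.14 in EV tumours (SD, n = 6 each), a change of 0.31 ± 0.11 with an adjusted p of 0.0485 by limma. That call was lost on leaving out any 1 array but EV rat 5 (adjusted p between 0.0570 and 0.10), and after median scaling the change of Ccr3 was 0.14 ± 0.11 (adjusted p = 0.416). It was 0.34 ± 0.12 without EV rats 2 and 3 (adjusted p = 0.0721) and 0.32 ± 0.13 without EGFRvIII rats 2 and 5 (adjusted p = 0.125).

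Some markers of microglia and macrophages were higher in EGFRvIII tumours too. Of 20 listed, 14 were tested, 4 were higher (Mrc1, Trem2, Arg1 and Cd14), 0 were lower and 10 were not called, with a median change of 0.60. Of all genes, 11.1% were higher and 10.4% lower. The change was positive for 12 of the 14 and negative for Tmem119 (-0.44 ± 0.16) and P2ry12 (-0.13 ± 0.28), neither of them called. Cd163 was detected on 5 arrays and not tested, none of the markers with a probe was at 0 arrays, and 5 had no matching probe. The mean level of the 14 ranged from 8.81 to 10.02 in EGFRvIII tumours and from 7.41 to 8.96 in EV tumours. It was 9.74, 8.81, 9.65, 9.84, 8.88 and 10.02 in EGFRvIII rats 1 to 6, so EGFRvIII rats 2 and 5, highest in Ccl6 and among the highest in Ccr1, were lowest in it. The part of these cells in the changes of Ccr1, Ccl7 and Ccl12 was not tested.

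The array genes with a symbol whose values followed Ccr1 most closely, over 12 arrays with the group means removed, were Pelp1 (r = 0.914), Rassf3 (0.906), Mcemp1 (0.875), Eaf1 (0.867) and Cct6a (0.865). Mcemp1, first described in mast cells, was itself higher (adjusted p = 6.8e-05 by limma), being detected on 6 of 6 EGFRvIII arrays and 1 of 6 EV arrays, and Pelp1 was not called (0.12, adjusted p = 0.580). The genes most like Ccl7 were Ccl12 (r = 0.930), the interleukin 2 receptor chain Il2ra (0.928), Nabp1 (0.927), the chemokine Ccl22 (0.922) and Hsd17b1 (0.913). These are the top 5 of 8382 genes compared for each and are given as a description.

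Among the CXC ligands that attract neutrophils through Cxcr2, Cxcl1 was the 1 gene tested, and it was higher. Its values were 9.88, 10.26, 9.07, 10.18, 9.25 and 9.30 in EGFRvIII rats 1 to 6, against 8.06, 7.78, 8.31, 8.62, 8.96 and 8.14 in EV rats 1 to 6. The lowest EGFRvIII tumour lay above the highest EV tumour by a small margin (9.07 against 8.96). The change was 1.34 ± 0.24 (2.54-fold, adjusted p = 0.00177 by limma). It was 1.21 ± 0.27 without EV rats 2 and 3 (adjusted p = 0.00911) and 1.29 ± 0.26 without EGFRvIII rats 2 and 5 (adjusted p = 0.00815). Of its relatives, Cxcl2, next to Cxcl1 in the annotation, was detected on 2 of 6 EGFRvIII arrays and 0 of 6 EV arrays, and Cxcl3 and Cxcl6 on 0 arrays.

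Both receptors of this family failed the detection filter. Cxcr2 was detected on 0 arrays. Cxcr1 was detected on 5 of 6 EGFRvIII arrays and 0 of 6 EV arrays, 1 array short of the 6 needed for testing. Its values were 4.56, 5.61, 6.37, 6.46, 5.82 and 4.87 in EGFRvIII rats 1 to 6, against 4.38 to 4.61 in EV tumours, where it was not above background. EGFRvIII rat 1 lay within the EV range. Against the lowest signal detected on each EV array, Cxcr1 was at least 1.90-fold higher in EGFRvIII tumours, a bound given with no test. In the alternative with no filter on dim probes its change was 1.16 ± 0.28 (adjusted p = 0.0184 by limma), with its EV values at background.

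Of 10 listed neutrophil markers, 3 were tested, S100a8 being higher (1.66 ± 0.50, adjusted p = 0.0298 by limma) and Mpo and Camp not called. The other 7 were not tested, and 5 of them were detected on 0 arrays, among them S100a9 and Elane. The mean of the 3 ranged from 4.99 to 5.94 in EGFRvIII tumours and from 4.66 to 5.10 in EV tumours. Their part in the values of Cxcr1 and Cxcl1 was not tested.

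Ccl17, a ligand of Ccr4 that dendritic cells and macrophages release, was higher. It was 6.56, 6.85, 6.77, 8.16, 6.72 and 5.69 in EGFRvIII rats 1 to 6, against 5.09 to 6.33 (median 5.74) in EV tumours. EGFRvIII rat 4 was highest, and EGFRvIII rat 6 lay within the EV range. The change was 1.09 ± 0.34 (2.12-fold, adjusted p = 0.0349 by limma). It no longer passed when a single tumour among EV rats 2, 3 and 6 and EGFRvIII rats 2, 3, 4 and 5 was left out (adjusted p between 0.0514 and 0.0726), and without EV rats 2 and 3 together the change was 0.82 ± 0.36 (adjusted p = 0.147). Without EGFRvIII rats 2 and 5 it was 1.09 ± 0.41 (adjusted p = 0.102). Ccl22, the other Ccr4 ligand, ranged from 4.44 to 7.07 in EGFRvIII tumours and from 4.42 to 6.14 in EV tumours and was not called (0.29 ± 0.45). Ccr4 itself was not called (0.22 ± 0.12, adjusted p = 0.234).

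Cx3cl1 lies between Ccl17 and Ccl22 in the annotation and went the other way. It encodes fractalkine, a membrane-bound chemokine of neurons and endothelium whose receptor is Cx3cr1. Its values were 8.84, 5.27, 6.99, 5.91, 5.92 and 7.90 in EGFRvIII rats 1 to 6, against 8.53, 10.27, 7.94, 9.35, 8.0 and 8.89 in EV rats 1 to 6. Apart from EGFRvIII rat 1, each EGFRvIII tumour lay below every EV tumour. The change was -2.03 ± 0.57 (4.07-fold lower, adjusted p = 0.0229 by limma). Without EGFRvIII rat 4 or rat 5 the adjusted p was 0.0529 and 0.0534, and without EV rats 2 and 3 together the change was -1.89 ± 0.61 (adjusted p = 0.0523). Without EGFRvIII rats 2 and 5 it was -1.42 ± 0.56 (adjusted p = 0.120).

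The highest Cx3cl1 tumour of each group was also the highest in neuron markers. Below the top the orders differed in part. EV rats 1 and 6 were lowest of their group in neuron markers but lay above EV rats 3 and 5 in Cx3cl1. EGFRvIII rat 2 was lowest of its group in both. The mean of 10 neuron markers was 8.14 in EGFRvIII rat 1 and 5.10 to 6.37 in the other EGFRvIII tumours, against 9.52 in EV rat 2 and 5.17 to 7.64 in the other EV tumours. None of the 10 was called by limma, 0 also at an unadjusted p under 0.05, their median change was -0.99, and the 2 others, Rbfox3 and Slc17a7, were detected on 3 arrays each. The mean of 7 astrocyte markers, 1 of them lower and 0 higher, was also highest in EGFRvIII rat 1 (8.89) and EV rat 2 (10.38). Of 13 endothelial markers, 9 were tested and 6 were lower, among them Slco1c1 (-1.89 ± 0.42) and Cldn5 (-1.18 ± 0.26), and 0 were higher. The mean of the 9 ranged from 6.60 to 7.46 in EGFRvIII tumours and from 7.58 to 7.92 in EV tumours. It was 6.67, 7.46, 6.85, 6.60, 7.34 and 7.14 in EGFRvIII rats 1 to 6. EGFRvIII rat 2, lowest in Cx3cl1, was thus the highest EGFRvIII tumour in it, while EV rat 2 was the highest EV tumour in both. None of the endothelial markers with a probe was at 0 arrays. The part of these cell types in the fall of Cx3cl1 was not tested. The receptor Cx3cr1, of microglia and monocytes, was not called (-0.19 ± 0.20).

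The interferon-induced ligands of Cxcr3, which draw activated T cells, differed far more within each group than between the groups. Cxcl9 was 12.40, 8.40, 12.61, 11.48, 8.49 and 13.03 in EGFRvIII rats 1 to 6, against 13.33, 11.41, 8.79, 13.07, 13.07 and 12.03 in EV rats 1 to 6. Cxcl11 was 10.66, 5.66, 10.69, 9.81, 5.82 and 11.47 in EGFRvIII rats 1 to 6, against 11.24, 7.58, 5.96, 11.44, 11.71 and 9.40 in EV rats 1 to 6. EGFRvIII rats 2 and 5 and EV rat 3 were the lowest of their groups in both. Cxcl10 ranged from 7.28 to 10.31 in EGFRvIII tumours and from 5.30 to 10.43 in EV tumours, with the same 2 EGFRvIII tumours and the same EV tumour lowest.

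None of these 3 was called (Cxcl9 -0.88 ± 0.95, Cxcl10 0.31 ± 0.85, Cxcl11 -0.54 ± 1.23, adjusted p = 0.552, 0.834 and 0.797 by limma). The sign depended on which tumours entered. Without EV rats 2 and 3 the changes were -1.81 for Cxcl9, -0.93 for Cxcl10 and -1.93 for Cxcl11, and without EGFRvIII rats 2 and 5 they were 0.43, 1.03 and 1.10, none of them called. Leaving out single tumours took Cxcl9 from -1.51 without EV rat 3 to -0.35 without EGFRvIII rat 2.

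Several other genes had the same low tumours. Cxcl13, which draws B cells through Cxcr5, was 12.90, 6.91, 12.82, 11.86, 7.71 and 13.20 in EGFRvIII rats 1 to 6, against 13.08, 10.97, 6.40, 11.64, 11.86 and 10.74 in EV rats 1 to 6. Xcl1, made by T and NK cells, was 4.31 and 4.28 in EGFRvIII rats 2 and 5 and 5.43 to 7.12 in the other EGFRvIII tumours, against 4.24 in EV rat 3 and 4.63 to 7.61 in the other EV tumours. Cxcr3, the receptor of Cxcl9 to Cxcl11, had its lowest values in EGFRvIII rat 2 (5.45) and EGFRvIII rat 5 (5.80), against EV rat 3 (5.39) in the other group. Ccr6, the Ccl20 receptor, and Cxcl16, a ligand of Cxcr6 that macrophages carry, were also lowest in these 3 tumours within their groups. So were the monocyte attractants Ccl2 and Ccl12, the latter called higher, and Ccl4, Cxcl17 and Cxcr4.

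The mean of 14 T and NK cell markers was 7.90, 5.43, 8.02, 7.71, 6.09 and 8.65 in EGFRvIII rats 1 to 6, against 8.73, 6.53, 4.99, 8.0, 8.04 and 7.14 in EV rats 1 to 6, lowest in the same 3 tumours. None of the 14 was called by limma, 0 also at an unadjusted p under 0.05 (median change -0.05), and 2 further markers, Cd5 and Foxp3, were detected on 0 arrays. Ifng, the cytokine that induces these ligands, was 5.87 ± 0.97 in EGFRvIII tumours and 5.98 ± 1.05 in EV tumours (SD, n = 6 each). Of 16 interferon response markers 11 were tested, 1 was higher (Oasl) and 2 lower (Ifi44 and Ifit2). Their median change was -0.69, with 2 of the 11 positive, and Ifit1 and Isg15 were at 0 arrays. Their mean ranged from 8.22 to 10.18 in EGFRvIII tumours and from 8.45 to 10.32 in EV tumours. It was lowest in EGFRvIII rats 2 and 5 in that group, but among EV tumours in rat 2 (8.45) and not rat 3 (8.62). EGFRvIII rats 2 and 5 and EV rat 3 were also lowest within their groups in the mean of 14 microglia and macrophage markers. That mean was 8.81, 8.88 and 7.41 in these tumours. Whether the number of T and NK cells, or of microglia and macrophages, accounts for the spread of the ligands was not tested.

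**Figure D4:**
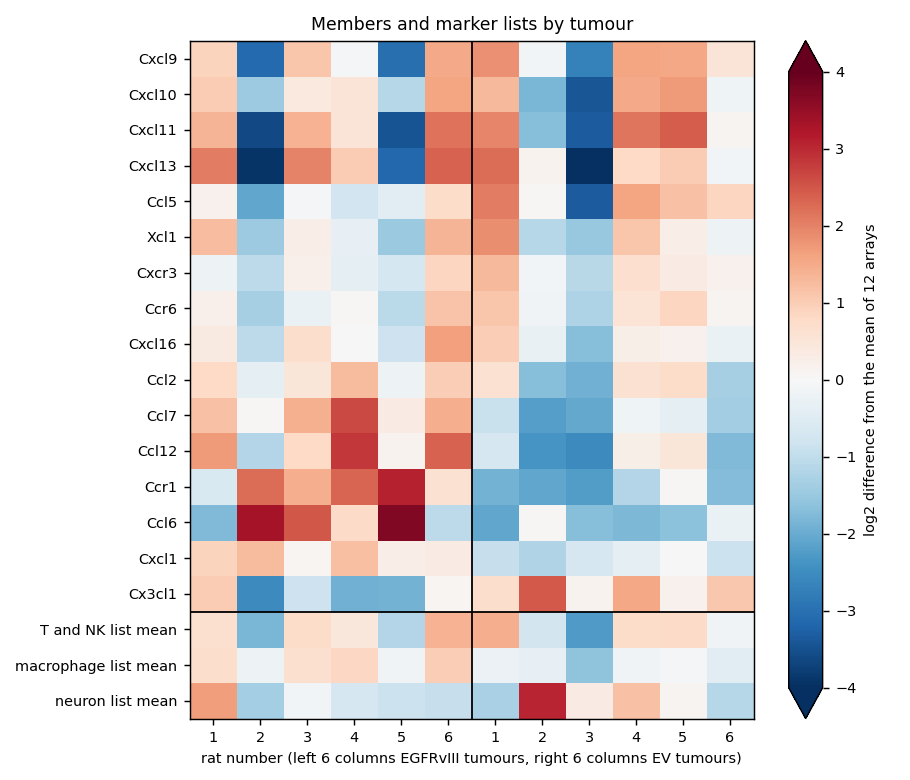
Log2 difference of each tumour from the gene's mean over 12 arrays (colour, red above and blue below) for 16 genes and, in the lower 3 lines, the means of 3 marker lists. Columns are EGFRvIII rats 1 to 6, then EV rats 1 to 6. Cxcl9, Cxcl10, Cxcl11, Cxcl13 and the T and NK list mean are all blue in EGFRvIII rats 2 and 5 and EV rat 3.

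This spread was wide by the standard of the array. The within-group SD (root mean square of both groups) had a median of 0.89 over the 30 tested genes and 0.25 over all 11695 genes. Of the 30 genes, 18 lay among the 5% of all genes with the largest SD and 7 among the top 1%, namely Ccl5, Ccl6, Ccl12, Cxcl9, Cxcl10, Cxcl11 and Cxcl13. Cxcl13 (SD 2.58) and Cxcl11 (SD 2.48) were at percentiles 99.99 and 99.98. The SD of a probe near background is small by construction of the scale, as in Ccl21 (SD 0.10), so this ranking also follows brightness.

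**Figure D5:**
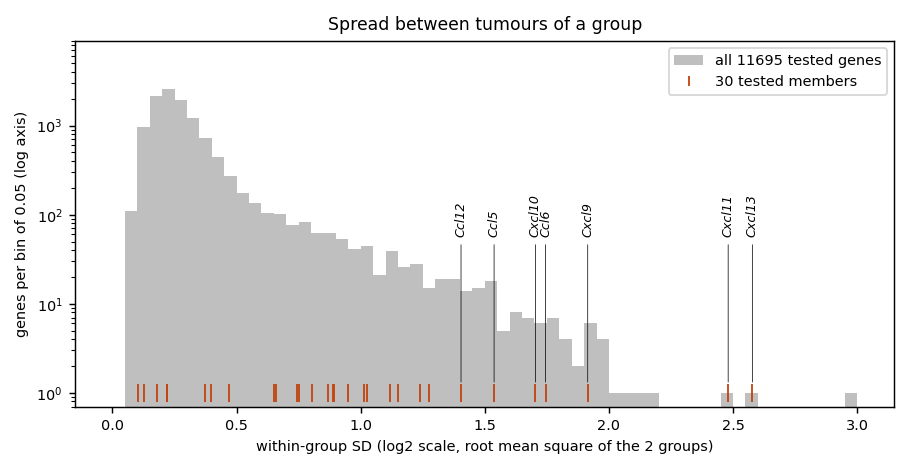
Histogram of the within-group SD on the log2 scale (x axis) over 11695 genes, with the number of genes per bin on a log axis. Ticks mark the 30 chemokine and receptor genes, and the 7 in the top 1% are named, with Cxcl11 and Cxcl13 near 2.5.

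Covariation was measured within each group for pairs of ligands or of a ligand and its receptor. Of 30 relations (15 pairs in 2 groups), 12 were not measurable and 5 had tumours in separate clusters, so 13 were computed, 7 of them with an adjusted p of r under 0.05. In EV tumours Cxcl10 followed Cxcl11 (r = 0.999, exact permutation p = 0.00278, the smallest that 720 orders can give, adjusted p = 0.0361; rho = 1.00, adjusted p = 0.0361; r = 0.999 without the 2 tumours farthest from the median). There Cxcl9 also followed Cxcl10 (r = 0.959, exact permutation p = 0.0167, adjusted 0.0361; rho = 0.771, adjusted 0.167) and Cxcl11 (r = 0.951, exact permutation p = 0.0167, adjusted 0.0361; rho = 0.771, adjusted 0.167), with r of 0.917 and 0.928 without the 2 farthest. In EGFRvIII tumours these 3 relations could not be tested, because rats 2 and 5 formed a separate cluster in Cxcl9 or Cxcl11.

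Cxcl10 and its receptor Cxcr3 were related in EGFRvIII tumours (r = 0.877, exact permutation p = 0.0167, adjusted 0.0361; rho = 0.829, adjusted 0.167) and in EV tumours (r = 0.880, exact permutation p = 0.0250, adjusted 0.0464; rho = 0.771, adjusted 0.167). Without the 2 farthest tumours r was 0.686 in EGFRvIII tumours and 0.411 in EV tumours, so in EV tumours the relation rests on those 2. Ccl5 and Cxcl10 gave r = 0.825 in EGFRvIII tumours (exact permutation p = 0.0417, adjusted 0.0677; rho = 0.829, adjusted 0.167; r = 0.395 without the 2 farthest) and r = 0.914 in EV tumours (exact permutation p = 0.0167, adjusted 0.0361; rho = 0.771, adjusted 0.167; r = 0.948 without them). Ccl2 and Ccl7 were related in EGFRvIII tumours (r = 0.930, exact permutation p = 0.0139, adjusted 0.0361; rho = 0.943, adjusted 0.108; r = 0.757 without the 2 farthest), and in EV tumours Ccl2 fell into 2 clusters. The remaining 5 relations, Cxcl12 with Cxcr4 in both groups and Ccl3 with Ccl4, Ccl2 with Ccl3 and Ccl2 with Ccr2 in EGFRvIII tumours, had r between -0.30 and 0.47 and exact permutation p adjusted to at least 0.49, with rho between -0.31 and 0.43 and r between -0.47 and 0.65 without the 2 farthest. No difference between the groups was tested.

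Cxcl12, the constitutive ligand of Cxcr4 in brain and stroma, ranged from 6.52 to 8.45 (median 7.23) in EGFRvIII tumours and from 7.37 to 9.33 (median 8.53) in EV tumours. EGFRvIII rats 3, 4 and 5 lay below every EV tumour. The change of -1.10 ± 0.41 was not called (adjusted p = 0.0681 by limma), and its adjusted p was 0.0345 without EV rat 6 and 0.0292 without EGFRvIII rat 6. Cxcr4, a receptor of leukocytes and glioma cells, was 8.20 ± 0.57 in EGFRvIII tumours and 8.30 ± 0.72 in EV tumours (SD, n = 6 each; change -0.10 ± 0.33). The scavenging receptor Ackr3, which also binds Cxcl12, was detected on 1 of 6 EGFRvIII arrays and 2 of 6 EV arrays.

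Homeostatic ligands lay near background or were not called. Ccl19, which guides dendritic and T cells to lymph nodes, was not called (-0.63 ± 0.51), with EGFRvIII rat 6 (7.42) and EV rat 4 (7.22) highest in their groups. Ccl21, Ccl25 and Ccl27 lay between 4.42 and 5.21 on all arrays, with differences of -0.10 to 0.10 that were not called. Cxcl17, a mucosal chemokine, was not called (0.19 ± 0.21).

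Outside the 44 genes, 15 others of the chemokine system were listed, of which 10 were tested, 2 higher and 3 lower. Pf4, platelet factor 4, was higher (6.68 ± 0.69 in EGFRvIII tumours and 5.52 ± 0.34 in EV tumours, SD, n = 6 each; change 1.16 ± 0.28, adjusted p = 0.0106 by limma), as was Cmklr1, the chemerin receptor (0.37 ± 0.09). Its ligand Rarres2, chemerin, was lower (-1.65 ± 0.21), with Xcr1, the Xcl1 receptor of cross-presenting dendritic cells (adjusted p = 0.000297; detected on 2 of 6 EGFRvIII arrays and 6 of 6 EV arrays, so that its EGFRvIII level is mostly background), and the chemokine-like protein Cmtm3 (-0.60 ± 0.12). Of 25 genes of signal transduction from these receptors, 17 were tested and 1, the receptor kinase Grk6, was higher (0.61 ± 0.11, adjusted p = 0.00206 by limma), with a list median of 0.22. Of 16 upstream inducers, 10 were tested and 0 were called by limma, 0 also at an unadjusted p under 0.05, among them Il1b (0.13 ± 0.63), Nfkb1 (0.19 ± 0.17) and Irf1 (-0.73 ± 0.55), and Tnf and Il6 were detected on 2 and 5 arrays.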

How the data were processed

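Gene expression was measured on 12 Illumina arrays, 6 per group, grouped by sample titles. The deposited intensity table holds the authors' average signal per probe, not normalized per the file headers; values below 0 show that a background had been subtracted. The deposited detection score, a fraction from 0 to 1, equals 1 where a probe is surest to exceed background, so its complement served as the detection p. The authors' deposited log2 value table was read from its values as quantile-normalized (column medians between 3.586 and 3.592). The steps behind it are unknown beyond the name Partek, per the submitters' processing notes.

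limma 3.58.1 (R 4.3.3) applied neqc with an offset of 16, which shrinks changes of dim probes. The filter required detection (p under 0.05) by 6 or more of 12 arrays, and the brightest probe stood for its gene, giving 11695 genes. The comparison used lmFit and eBayes with a trend (two-sided tests, 0.05 after Benjamini-Hochberg adjustment). Of 22523 probes, 13793 had 1 gene symbol and 8730 none. Each probe with none was counted as a gene of its own, so the 11695 genes include such probes. Of the list entries, 137 matched by symbol and 27 had no match. Pairs were tested by exact two-sided permutation over 720 orders; a group was taken as 2 clusters where the largest gap exceeded 0.5 of the range with at least 2 tumours on each side, a rule chosen after the values were seen. Other tools were scipy 1.17.1, numpy 2.4.6, matplotlib 3.10.9 and pandas 2.3.3 under Python 3.11.15.

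The genes and lists were chosen with earlier results of these data known. Every gene of the family is accounted for; from other lists, up to 6 called genes could be named, and list genes named without a call were picked after their values were seen. Rat numbers did not pair the tumours: same-numbered rats correlated at -0.34 to -0.06 after removal of group means. No scan date is given, so batches were not modelled, and the number of arrays sets the precision. Equal signals made up at most 0.773% of probes for any 2 arrays. Alternatives were other normalizations, offsets, filters, probe means, variance models, array weights, the rat number as a block and arrays left out, of which leaving out EGFRvIII rats 2 and 5 was added after the data were seen. A further CC receptor gene is not reported here.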

Additional observations from a re-analysis of the deposited data

Results flagged for a closer look

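In 60 sets of 6 tumours (30 genes in 2 groups), 3 held a tumour whose distance to its nearest neighbour passed Dixon's 95% critical value as a share of the whole range. About 1 in 20 sets does so by chance. Ccr4 was 4.61 in EGFRvIII rat 2, against 5.02 in the next EGFRvIII tumour and 5.22 in the highest. Ccl5 was 5.90 in EV rat 3, against 9.27 in the next EV tumour and 11.27 in the highest. Cxcl13 was 6.40 in EV rat 3, against 10.74 in the next EV tumour and 13.08 in the highest.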

How the results depend on the processing

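Across 25 alternatives the calls of Ccr1, Ccl7 and Cxcl1 stood in each, while those of Ccl12, Ccl17, Ccr3 and Cx3cl1 did not. After median scaling without quantiles 3 of the 30 genes were higher and 2 lower, with 768 of all genes higher and 1799 lower. The calls of Ccl12, Ccl17 and Ccr3 were lost there (adjusted p = 0.0503, 0.0694 and 0.416 by limma), and Ccr2 turned to -0.085. With the rat number as a replicate block, although the numbers did not pair the tumours (0 of 6 correlated best with their own number), 0 of the 30 genes were called lower, and all genes gave 943 higher and 874 lower. With array weights 3 were lower, and all genes gave 1589 higher and 1459 lower. Ccl22 (-0.086), Cxcl10 (-0.89), Cxcl13 (-1.19), Cxcl16 (-0.23), Cxcl17 (-0.044) and Ccr2 (-0.052) turned negative there. Without EV rats 2 and 3 together 3 were higher, and all genes gave 995 higher and 957 lower. Ccl22 (-0.13), Cxcl10 (-0.93), Cxcl13 (-0.93), Cxcl16 (-0.15), Cxcl17 (-0.085) and Ccr2 (-0.12) turned negative there. Without EGFRvIII rats 2 and 5 together, chosen after seeing the data, 0 were lower, all genes gave 775 higher and 781 lower, the calls of Ccl17, Ccr3 and Cx3cl1 were lost, and Cxcl9 (0.43), Cxcl11 (1.10), Xcl1 (0.57), Ccr6 (0.080) and Cxcr4 (0.21) turned positive. With intensities floored Ccr4 turned to -0.0017, and Ccl21, at the floor on every array, gave no value. Leaving out 1 tumour at a time gave 3 to 6 genes higher and 0 to 2 lower, and 996 to 1305 of all genes higher and 963 to 1199 lower. Over these the change ran from -0.35 to 0.68 for Cxcl10, -1.25 to 0.13 for Cxcl11, -0.76 to 0.92 for Cxcl13, -0.029 to 0.52 for Cxcl16, -0.44 to 0.23 for Xcl1, -0.047 to 0.17 for Ccr2 and -0.33 to 0.078 for Cxcr4. None of the genes that turned was called in the main comparison. The cause was not tested. Dim genes are limited by background: 14 of the 44 had too few detected arrays to be tested.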

Other observations

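Within EGFRvIII tumours, the order of Ccl6 ran against that of Cxcl13. Ccl6 was highest in EGFRvIII rats 5 (10.58) and 2 (10.23), where Cxcl13 was lowest (7.71 and 6.91). It was lowest in EGFRvIII rats 1 (5.12) and 6 (5.84), where Cxcl13 was highest (12.90 and 13.20). In EV rat 3, where Cxcl13 was also low (6.40), Ccl6 was 5.20, so low Cxcl13 did not go with high Ccl6 there. The genes were picked after their values were seen, and no test was made.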
